A study of Homo sapiens with 12 samples.

Results

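The response of cells labelled MKN74, a human gastric cancer line, to oligonucleotides that fold into a G-quadruplex (G4) was read from 4 expression arrays out of the 12 in the series. The arrays were chosen by their labels: 2 hold RNA of cells given a G4 oligonucleotide, either (uuaggg)4, an RNA oligonucleotide (ORN), or AS1411, a DNA oligonucleotide (ODN), and 2 hold RNA of control cells given lipofectamin only or (uuaccc)4 ORN. All 4 cultures were reverse transfected with Lipofectamine RNAiMAX, at 100 pmol (1 microgram) per well into 300000 cells where an oligonucleotide was given, grown on plates to which cells adhere poorly and collected at 72 h. The other 8 arrays, 4 each of the cell lines PC-3 and HBC4 under these 4 treatments, served to estimate the spread and to set the MKN74 response beside that of other cells. Each treatment had 1 array per line, and the labels name no further cultures, so the 2 arrays of a class differ in treatment as well as in culture. Every gene was counted: 19775 genes with a probe set that names 1 gene, of which a gene was said not to overlap when both G4 arrays lay beyond both control arrays.

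A G4 is a four-stranded fold of nucleic acid built from stacked planes of guanines, and runs of G are what it needs. The RNA made from human telomeres folds this way, and AS1411 is a G-rich DNA aptamer known for binding nucleolin. RNA brought into cells by transfection can be sensed in the cytosol and in endosomes, by RIG-I, MDA5 and toll-like receptors among others, which switch on interferon genes. Interferon then acts back on the cells through its receptors and raises a large set of antiviral genes, the interferon-stimulated genes.

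Values are log2 expression values centred on each probe set's median over the 12 arrays, so they compare arrays for 1 gene and do not compare genes. For each gene the array values are given in the same order: reagent alone and (uuaccc)4 for the controls, then (uuaggg)4 and AS1411. Over all genes the MKN74 arrays correlated with each other at 0.942 to 0.97, and with arrays of the other lines at -0.179 or less, which the centring lowers. The labelled tissue was checked against its markers in the control arrays. Of 12 genes typical of stomach epithelium, the trefoil peptides TFF1 and TFF2 had MKN74 control means of -0.1 and -0.57 against 8.25 and 8.38 in the arrays labelled PC-3. ANXA10 (-0.41 against 7.05) and VSIG1 (-0.45 against 5.14) were also lower than in the arrays labelled PC-3. In all, 5 of the 12 stood more than 1 log2 unit above both other lines in the arrays labelled PC-3 and 0 of 12 in those labelled MKN74. The other 7, such as MUC6 (0.06 against -0.18 in PC-3 and -0.07 in HBC4) and GKN1 (0.04 against -0.22 and -0.17), stood so far apart in no line. Of 8 prostate genes 3 were that far above in the arrays labelled PC-3 too, among them HOXB13 (4.67 against -0.34 in MKN74 and 0 in HBC4) and STEAP1 (4.56 against -1.79 and -0.16). Of 11 intestinal genes 1 was that far above in the arrays labelled MKN74, CDX2 (1.31 against -0.34 in PC-3 and -0.37 in HBC4). In those labelled PC-3 3 were, among them TFF3 (5.52 against -0.21 in MKN74). Of 10 breast genes 3 were that far above in HBC4 and 0 in MKN74. Of 10 general epithelial genes 2 were more than 1 log2 unit above both other lines in the arrays labelled MKN74. KRT19 was 1 of these (1.73 against -0.12 in PC-3 and -3.01 in HBC4). In HBC4 2 were that far above, CDH1 (1.26 against 0.01 in MKN74) and CLDN4 (1.23 against 0.09). The other 6 stood so far above in no line, among them ESRP1 (0.93 in MKN74 against -3.79 in PC-3 and -0.01 in HBC4). The genes farthest above both other lines included SPRR1B, RNASE7 and PRR9, which belong to cornified epithelium such as skin, with PRR9 at 9.73 against -0.12 and -0.14. The gastric markers that differ between lines thus go against the label MKN74. Whether arrays are exchanged or a line is not what its label says was not tested, and all values are given by the label of the arrays. None of the 78 marker genes measured, among them 9 of leukocytes, 10 of fibroblasts and 8 of endothelium, was called by limma between G4 and control arrays, and 8 (10.3%) had an unadjusted p under 0.05, beside 14.7% of all genes.

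With G4 oligonucleotides, 272 genes fell in MKN74 and 90 rose. The falls were led by interferon-stimulated genes, MHC class I genes and genes of the cornified envelope, the protein shell of dying skin cells, and the rises by the keratins KRT1 and KRT5 and by GJA1. The test was limma's moderated comparison of class means within the line, fitted on all 12 arrays, with Benjamini-Hochberg adjusted p under 0.05 over 19775 genes. The falls are 1.38% and the rises 0.455% of the genes tested. Of the 272 falls, 90 were at least 2-fold, and of the 90 rises, 11 were. All 362 called genes had arrays that did not overlap, but lack of overlap alone was common: both G4 arrays lay below both controls in 4640 genes (23.5%) and above them in 4251 genes (21.5%). An exact permutation test of 2 arrays against 2 cannot give a p under 0.333, so the calls rest on the spread pooled over genes and lines. Without any 1 of the 4 MKN74 arrays fewer genes fell and fewer rose. Such a fit holds 1 array in a class and has less power. Lost calls therefore cannot show whether the array left out differed from the rest. Of 110 called genes examined singly, 50 kept the call whichever of the 4 arrays was left out and 26 lost it whichever was left out. Of genes named here, the latter are AURKB, AXL, CCNB2, CEACAM1, CST6, EIF2AK4, FAS, HERC5, IFI6, IFNL2, IRF1, KRT3, KRT15, MDM2, MSX1, OAS2, PRC1, RIGI, RSAD2, SBSN, TGM3, UBE2C and USP18. A further 21 lost it with 3 of the 4 arrays, among them BMP7, CDC20, CENPE, ECM1, ID1, IL32, ISG15, KRT4, LCN2, PSMB9, RNASE7, SMAD6, SPINK7, TNFAIP2, TNFSF10, TP53I3 and TP53INP1.

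LORICRIN had the largest fall of all genes called. It encodes loricrin, the main protein of the cornified envelope, and its values were 5.34 and 6.32 in the controls and 3.18 and 2.34 with the G4 oligonucleotides, a fall of 3.07 (8.41-fold; SE 0.3, adjusted p = 0.000602). Both controls lay well above both G4 arrays. IFI44 and IFI44L, neighbouring interferon-stimulated genes on chromosome 1, followed. IFI44 read -0.05 and 0.45 in the controls and -2.34 and -2.99 with the G4 oligonucleotides, a 7.29-fold fall (SE 0.27, adjusted p = 0.000594). IFI44L read 0.01 and -0.18 in the controls and -2.59 and -2.87 with the G4 oligonucleotides and fell 6.25-fold (SE 0.28, adjusted p = 0.00116). In both genes the G4 arrays stood far below both controls.

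SCNN1G, the gamma subunit of the epithelial sodium channel, was the next and is no interferon gene. Its values were -1.23 and -0.98 in the controls and -3.6 and -3.32 with the G4 oligonucleotides, a 5.13-fold fall (SE 0.15, adjusted p = 4.95e-05), in 1 of 2 probe sets: the other differed by 0.11. IFIT3, whose protein binds with its relatives to foreign RNA, read 0.04 and 0.28 in the controls and -1.81 and -2.08 with the G4 oligonucleotides (4.3-fold lower; SE 0.18, adjusted p = 0.000321). HCP5, a long noncoding RNA of the MHC region, read 0.18 and 0 in the controls and -1.94 and -2.04 with the G4 oligonucleotides (4.23-fold lower; SE 0.11, adjusted p = 4.64e-05). In all 3 genes the spread within a class was small beside the gap between the classes.

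HLA-B, a class I antigen-presenting chain, read -0.15 and -0.33 in the controls and -2.27 and -2.05 with the G4 oligonucleotides (3.79-fold lower; SE 0.12, adjusted p = 4.95e-05). XAF1, an interferon-stimulated partner of the apoptosis inhibitor XIAP, read 0.44 and 0.48 in the controls and -1.55 and -1.19 with the G4 oligonucleotides (3.55-fold lower; SE 0.23, adjusted p = 0.00309), with its 3 probe sets between -1.83 and -0.46. The falls in XAF1 and HLA-B were, by value, greater with (uuaggg)4 than with AS1411, and in the other interferon-stimulated genes named so far with AS1411. OAS1, which makes the second messenger of RNase L on double-stranded RNA, read 0.26 and 0.36 in the controls and -1.44 and -1.57 with the G4 oligonucleotides (3.52-fold lower; SE 0.15, adjusted p = 0.00026). BST2, or tetherin, which holds budding viruses at the membrane, read -0.35 and -0.49 in the controls and -2.18 and -2.23 with the G4 oligonucleotides (3.45-fold lower; SE 0.18, adjusted p = 0.000752).

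Among the rises KRT1, a keratin of suprabasal skin cells, came first. Its values were 2.54 and 3 in the controls and 5.61 and 5.2 with the G4 oligonucleotides, a 6.21-fold rise (SE 0.2, adjusted p = 0.000167). KRT5, the keratin of basal skin cells, read 3.89 and 3.97 in the controls and 5.74 and 5.45 with the G4 oligonucleotides (3.17-fold higher; SE 0.13, adjusted p = 0.000241). GJA1, which encodes the gap junction protein connexin 43, read -0.91 and -0.82 in the controls and 1.36 and 0.82 with the G4 oligonucleotides (3.88-fold higher; SE 0.19, adjusted p = 0.000594). In all 3 the value with (uuaggg)4 was the highest of the 4 arrays and the value with AS1411 next.

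FABP4, a fatty acid carrier, read -0.79 and -0.84 in the controls and 1.44 and 0.79 with the G4 oligonucleotides (3.8-fold higher; SE 0.22, adjusted p = 0.00158), while its other probe set differed by 0.26. CALML5, a calmodulin-like calcium binder of skin, read 0.19 and -0.35 in the controls and 2.34 and 1.24 with the G4 oligonucleotides (3.67-fold higher; SE 0.3, adjusted p = 0.0121). Its arrays lay wider apart within each class than those of KRT5. The remaining rises of the top 10 were CLCA2 (1.39, adjusted p = 0.00876), the protease inhibitor SPINK7 (1.19, adjusted p = 0.0252), the noncoding RNA LINC01133 (1.18, adjusted p = 0.0034), the calcium binder S100A3 (1.16, adjusted p = 0.0116) and VAV3 (1.16, adjusted p = 0.000976). The 3 probe sets of VAV3 ran from -0.53 to 1.16, and with their mean it was not called.

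**Figure D1:**
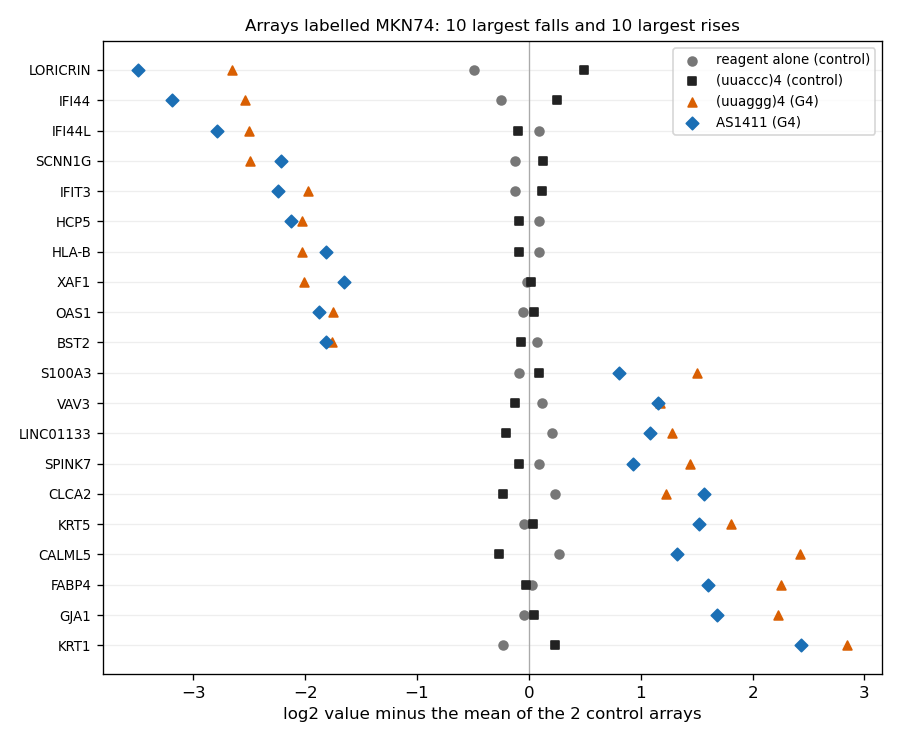
Log2 values of the 10 largest falls and 10 largest rises in the 4 arrays labelled MKN74, each minus the mean of the 2 control arrays (x axis); each point is 1 array and each row 1 gene. Both G4 arrays lie to the left of both controls for LORICRIN to BST2 and to the right for S100A3 to KRT1, with KRT1 2.64 above its controls on average.

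Of 62 measured effector genes of the interferon response, 36 fell, 0 rose and 26 did not pass the test, with a median difference of -0.88 beside 0 over all genes. Over all genes 1.38% fell. Both G4 arrays lay below both controls in 52 of the 62 effectors and above in 2, beside 23.5% and 21.5% of all genes. The list was written with earlier results of these arrays known, so its direction is not independent evidence. Without the reagent array 19 of the 62 fell, without (uuaccc)4 23, without (uuaggg)4 28 and without AS1411 20.

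UBE2L6, the conjugating enzyme that attaches ISG15 to proteins, read -0.64 and -0.77 in the controls and -2.41 and -2.54 with the G4 oligonucleotides (fell by 1.77; SE 0.11, adjusted p = 5.17e-05). ISG15 itself fell by 1.16 (adjusted p = 0.0125) and HERC5, its ligase, by 0.99 (adjusted p = 0.0389). CMPK2 and RSAD2, neighbours that act on nucleotides, fell by 1.77 and 1.65 (adjusted p = 0.00185 and adjusted p = 0.0135). The calls of HERC5 and RSAD2 were lost when any 1 MKN74 array was left out (adjusted p = 0.0853 to 0.216 and adjusted p = 0.0653 to 0.0917), and that of CMPK2 was kept. Membrane barriers to virus entry moved with them: IFITM1 fell by 1.46, IFITM2 by 1.04 and IFITM3 by 1.11, with the caution that these genes are near-identical in sequence and may share probes. LGALS3BP, a secreted glycoprotein, read -2.37 and -2.5 in the controls and -4.2 and -4.19 with the G4 oligonucleotides (fell by 1.76; SE 0.11, adjusted p = 4.95e-05). TNFSF10, the death ligand TRAIL, fell by 1.63 (adjusted p = 0.00876). PARP9, PARP12 and PARP14, ADP-ribosyltransferases of this response, fell by 1.23, 1.03 and 0.95, though 1 of the 2 probe sets of PARP14 differed by 0.03. IFIT1, the founding member of its family, had a difference of -1.41 and an adjusted p of 0.0619, so it did not pass.

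A second set of effectors had small differences between the classes in MKN74 and did not pass. MX1, a GTPase that traps virus particles, read -3.95 and -3.75 in the controls and -3.82 and -4.31 with the G4 oligonucleotides, a difference of -0.22 (adjusted p = 0.743). SAMD9L read -2.86 and -2.62 in the controls and -3.08 and -2.75 with the G4 oligonucleotides (adjusted p = 0.762) and GBP1, a guanylate-binding protein, -3.62 and -3.88 in the controls and -3.43 and -4.23 with the G4 oligonucleotides (adjusted p = 0.907). Their classes overlapped, as did those of TRIM25 and EPSTI1. RTP4 and GBP2 were the only effectors with both G4 arrays above both controls, at differences of 0.68 (adjusted p = 0.12) and 0.35 (adjusted p = 0.393).

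In the control arrays themselves, MX1 stood at a mean of -3.85 in MKN74 against 2.79 in PC-3 and 2.09 in HBC4. In all, 8 effectors had a MKN74 control mean more than 3 log2 units below those of both other lines: APOL6, GBP1, GBP2, LGALS3BP, MX1, RTP4, SAMD9L and TRIM22. Of these 8, only LGALS3BP fell, and their median difference in MKN74 was -0.2, beside -2.26 in PC-3 and -1.48 in HBC4. Among the other 54 effectors 35 fell, with a median of -0.97 in MKN74, -1.85 in PC-3 and -1.27 in HBC4. With the bound at 2 log2 units EPSTI1, IFI44 and IFI44L join the 8, and of these 11 genes 3 fell, IFI44 and IFI44L among them. The control arrays enter both the level and the difference, and centred values cannot show whether a probe set is near its background, so the part of a low control level in the small differences was not tested.

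**Figure D2:**
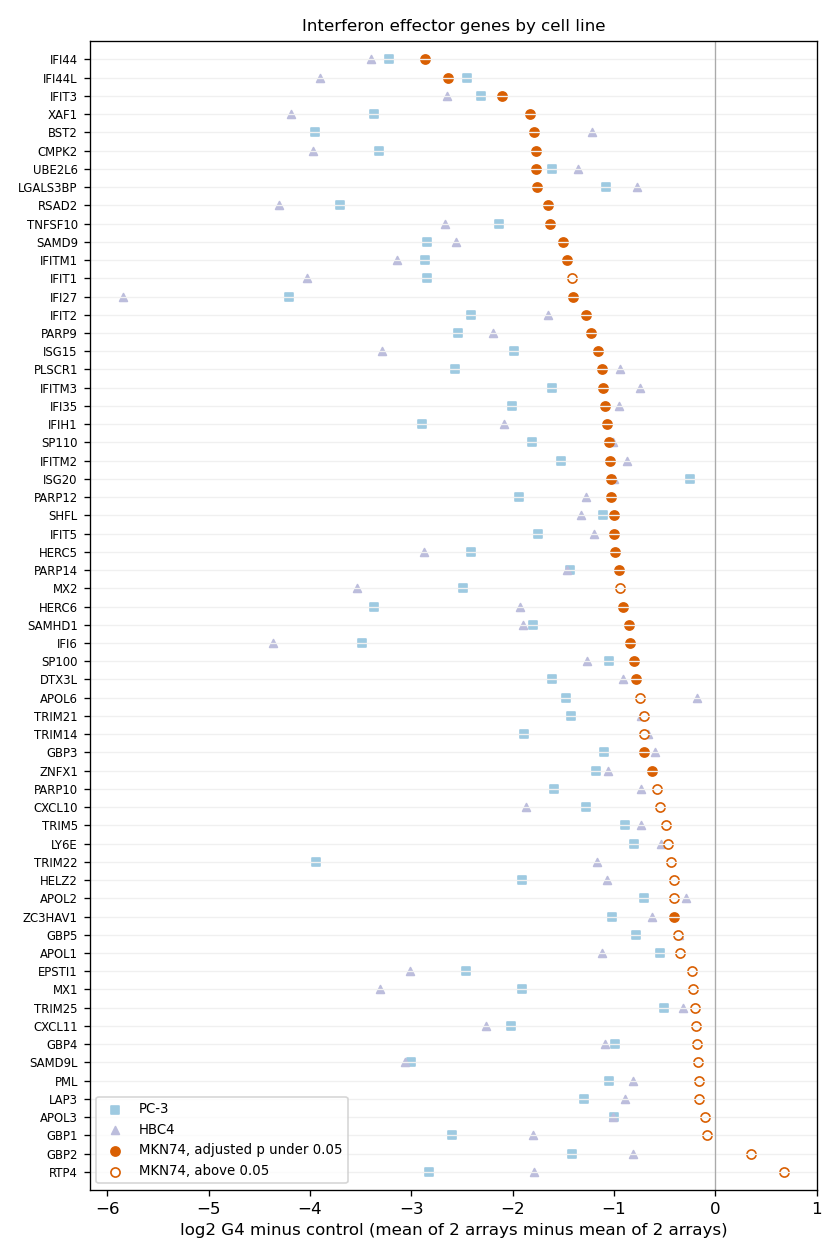
G4 minus control differences (x axis, log2, mean of 2 arrays minus mean of 2 arrays) of the 62 interferon effector genes, 1 row per gene, in the arrays labelled MKN74 (circles, filled where adjusted p is under 0.05), PC-3 (squares) and HBC4 (triangles). The MKN74 circles run from -2.87 for IFI44 to 0.68 for RTP4, and for most genes in the lower rows both other lines lie well to the left of MKN74.

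Of 25 genes measured that sense nucleic acids or relay the signal, 7 fell and 0 rose, with a median of -0.28. The share of all genes that fell was 1.38%. The 7 were OAS1, OAS2, OAS3, DDX60, DDX60L, RIGI and IFIH1. OAS2 had probe sets between -1.51 and -0.34. Leaving out (uuaccc)4 or AS1411 lowered the count to 4. DDX60, a helicase that helps RNA sensing, read 0.77 and 1.01 in the controls and -0.77 and -1 with the G4 oligonucleotides (fell by 1.78; SE 0.17, adjusted p = 0.000594). IFIH1, which encodes MDA5, the sensor of long double-stranded RNA, and is counted among the effectors too, read 0.96 and 0.98 in the controls and -0.09 and -0.11 with the G4 oligonucleotides (fell by 1.07; SE 0.14, adjusted p = 0.00434). RIGI, the sensor of RNA ends, read 1.41 and 1.42 in the controls and 0.38 and 0.12 with the G4 oligonucleotides (fell by 1.16; SE 0.23, adjusted p = 0.0304), though its 3 probe sets ran from -1.17 to 0.16. These are interferon-stimulated genes as well as sensors.

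The other sensors and adaptors did not pass. IFI16, a DNA sensor of the nucleus, read 0.12 and -0.1 in the controls and -1.3 and -1.77 with the G4 oligonucleotides, without overlap, but its difference of -1.55 had an adjusted p of 0.0728. TLR3, the endosomal receptor for double-stranded RNA, read -0.18 and 0.44 in the controls and -1.27 and -0.22 with the G4 oligonucleotides, so that only its (uuaggg)4 array stood clearly apart (difference -0.87, adjusted p = 0.245). TLR7, TLR8 and TLR9, the endosomal receptors for single-stranded RNA and for DNA, had differences of -0.28, 0.09 and -0.14. MAVS, the adaptor of RIG-I and MDA5, differed by 0.34 (adjusted p = 0.267), STING1 by -0.02 and the kinase TBK1 by -0.19, and none passed.

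Of the interferons and their receptors, 14 were measured, 1 fell and 0 rose, while 1.38% of all genes fell and 0.455% rose. The fall was in IFNL2, a type III interferon, at 1.29 and 1.43 in the controls and 0.08 and 0.21 with the G4 oligonucleotides (fell by 1.22; SE 0.25, adjusted p = 0.0365); its probes may also read its near-identical neighbours, and its call was lost when any 1 of the 4 arrays was left out. IFNL1 differed by -0.49 (adjusted p = 0.26) and IFNB1, the type I interferon of most cells, by -0.26 (adjusted p = 0.574). The receptor chains IFNAR1 and IFNAR2 differed by -0.27 and -0.29, without overlap of their arrays and without passing. Among 14 signalling genes 2 fell and 0 rose, beside the same 1.38% and 0.455% of all genes. USP18, the feedback inhibitor of the type I receptor, read 1.12 and 1.13 in the controls and 0.04 and -0.04 with the G4 oligonucleotides (SE 0.2, adjusted p = 0.0179). The transcription factor IRF1 fell by 0.43 (adjusted p = 0.0433). Both calls were likewise lost when any 1 of the 4 arrays was left out (adjusted p = 0.064 to 0.115 for USP18 and adjusted p = 0.0727 to 0.174 for IRF1). IRF7 differed by -0.62 (adjusted p = 0.0723) and IRF9 by -0.41 (adjusted p = 0.247).

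The products of MHC class I genes load and show peptides at the cell surface. Of 20 such genes measured 7 fell and 0 rose, with a median of -0.39, while 1.38% of all genes fell. The 7 were HLA-B, HLA-C, HLA-F, HLA-G, B2M, TAP1 and PSMB9. B2M, the shared light chain, read 0.03 and -0.06 in the controls and -0.94 and -0.87 with the G4 oligonucleotides (fell by 0.89; SE 0.09, adjusted p = 0.000602). TAP1, a chain of the peptide transporter, read -0.6 and -0.59 in the controls and -1.85 and -1.86 with the G4 oligonucleotides (fell by 1.26; SE 0.1, adjusted p = 0.000167), while TAP2 differed by -0.21 (adjusted p = 0.656). HLA-C, HLA-F and HLA-G fell by 1.15, 1.53 and 1.4. The class I chains are alike in sequence and their probe sets may cross-read, so the 4 HLA results are not independent. PSMB8, an immunoproteasome subunit, read -4.89, -5.08, -5.27 and -4.81 and its classes overlapped, whereas its relative PSMB9 fell by 0.84 (adjusted p = 0.0404). NLRC5, the activator of class I genes, differed by -0.53 (adjusted p = 0.138). Of 10 MHC class II genes limma called 0, with a median of -0.04. In 2 of them the unadjusted p was under 0.05, beside 14.7% of all genes.

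Targets of NF-kB, the inflammatory transcription factor, fell in 5 of 27 and rose in 0, with a median of -0.4. The share of all genes that fell was 1.38%. CCL5, a chemokine that interferon signalling also raises, read 1.83 and 1.62 in the controls and -0.13 and 0.11 with the G4 oligonucleotides (fell by 1.73; SE 0.13, adjusted p = 0.000167). ICAM1, an adhesion molecule for leukocytes, read -0.86 and -0.89 in the controls and -1.83 and -2.06 with the G4 oligonucleotides (fell by 1.07; SE 0.14, adjusted p = 0.0035), with 1 of its 3 probe sets at 0.11. The cytokine IL32, the iron-binding LCN2 and TNFAIP2 fell by 0.92, 0.82 and 0.56 (adjusted p = 0.0263, adjusted p = 0.0182 and adjusted p = 0.0458), with a probe set of TNFAIP2 at 0.07.

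To see what these genes share in sequence, the RefSeq promoters of GRCh38.p14, from 250 bases before to 50 after a gene's start, were searched on both strands for TTTC, any 2 bases, TTTC, the core of the interferon-stimulated response element. Of the 10 largest fallers 9 have a promoter in the table and 4 of these hold the motif: IFI44, IFI44L, IFIT3 and BST2. The other 5 (LORICRIN, HCP5, HLA-B, XAF1 and OAS1) do not hold these letters in this window. The 180 bases before each start are shown for the 4, on the gene's strand, with the motif in capitals.
IFI44, chr1:78649609-78649788, plus strand: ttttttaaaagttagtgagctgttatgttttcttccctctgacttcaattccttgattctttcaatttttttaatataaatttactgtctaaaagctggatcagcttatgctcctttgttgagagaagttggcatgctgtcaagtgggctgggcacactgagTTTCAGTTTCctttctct
IFI44L, chr1:78620268-78620447, plus strand: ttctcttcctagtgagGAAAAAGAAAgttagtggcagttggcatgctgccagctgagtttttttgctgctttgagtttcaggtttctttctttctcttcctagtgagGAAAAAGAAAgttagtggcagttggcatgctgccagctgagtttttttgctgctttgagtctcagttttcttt
IFIT3, chr10:89327817-89327996, plus strand: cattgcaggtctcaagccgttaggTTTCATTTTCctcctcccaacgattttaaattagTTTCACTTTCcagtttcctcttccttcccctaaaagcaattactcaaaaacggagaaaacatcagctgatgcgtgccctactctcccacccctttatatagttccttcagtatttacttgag
BST2, chr19:17405631-17405810, minus strand: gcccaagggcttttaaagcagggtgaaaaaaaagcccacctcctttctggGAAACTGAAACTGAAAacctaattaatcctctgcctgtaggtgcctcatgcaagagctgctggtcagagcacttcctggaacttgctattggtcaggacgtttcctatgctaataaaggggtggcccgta
The motif begins 18 bases before the start in IFI44, 164 and 73 before it in IFI44L, and 156 and 122 before it in IFIT3. In BST2 it occurs at 130 and 124, and the copies overlap.

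Over all 35116 promoters of this length 3.6% held the motif, and over the measured genes with a promoter 4.0% (613 of 15384). Among the genes that fell in MKN74 the share was 17.9% (40 of 224) and among those that rose 1.5% (1 of 68). It was 72% (36 of 50) in the interferon effectors and 61.1% (11 of 18) in MHC class I genes. Effectors that fell in MKN74 held it in 72.7% (24 of 33) and measured effectors that did not in 73.3% (11 of 15), shares that hardly differ. Falling genes outside the interferon and MHC class I lists held it in 5.1% (9 of 177), near the share of all genes. A match is a description of letters, not a shown binding site.

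Of the 272 genes that fell, 52 (19.1%) belong to the 5 lists of interferon and MHC class I genes, so most falls lie elsewhere. The largest other group in the top ranks is the cornified envelope, a list put together after the values were seen and therefore given without a test of its own. Of 47 genes listed 44 were measured, 12 fell, 1 rose and 31 did not pass, while 1.38% of all genes fell and 0.455% rose. Of the same 44 genes 3 fell and 1 rose in HBC4, beside 2% and 1.41% of all genes. In PC-3 0 fell and 0 rose, beside 1.29% and 0.637%. In the control arrays 37 of the 44 were highest in MKN74, with a median of 1.45 against -0.29 in PC-3 and 0 in HBC4. The part of these levels in the counts by line was not tested. Without AS1411 7 of them fell in MKN74.

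The envelope's structural proteins divided. LCE3D, a late envelope protein, read 4.86 and 4.81 in the controls and 3.23 and 3.09 with the G4 oligonucleotides (fell by 1.67; SE 0.16, adjusted p = 0.000602), and LCE2B fell by 1.55 (adjusted p = 0.00178). CRCT1, a small protein of the same gene cluster, read 4.91 and 5.16 in the controls and 3.88 and 3.55 with the G4 oligonucleotides (fell by 1.32; SE 0.13, adjusted p = 0.000627), and SPRR2G, a small proline-rich cross-linker, fell by 1.26 (adjusted p = 0.00654). SPRR1B read 9.29 and 9.46 in the controls and 9.33 and 9 with the G4 oligonucleotides, PRR9 9.73, 9.73, 9.79 and 9.65 and filaggrin, FLG, 4.57, 4.76, 4.56 and 4.92. These 3 genes had overlapping classes, although all 3 are, like LORICRIN, high in these arrays against the other lines. IVL, which encodes involucrin, an early envelope protein, had a difference of -0.72 (adjusted p = 0.445), with the AS1411 array lowest of the 4. Sequences within the LCE and SPRR families are alike, so their probe sets may cross-read.

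Proteases, protease inhibitors and defence proteins of this tissue fell too. ASPRV1, a protease that processes filaggrin, read 4.43 and 5.04 in the controls and 3.47 and 3.29 with the G4 oligonucleotides (fell by 1.35; SE 0.18, adjusted p = 0.00458). CTSV, a cysteine protease, read 1.4 and 1.38 in the controls and 0.19 and 0.04 with the G4 oligonucleotides (fell by 1.27; SE 0.11, adjusted p = 0.000437), and CST6, a cystatin that inhibits such proteases, fell by 1.67 (adjusted p = 0.015). RNASE7, an antimicrobial ribonuclease of skin, read 7.08 and 7 in the controls and 5.9 and 5.49 with the G4 oligonucleotides (fell by 1.34; SE 0.24, adjusted p = 0.018) with its 3 probe sets between -1.37 and -1.28. PI3, or elafin, an elastase inhibitor, fell by 1 (adjusted p = 0.00422), SBSN by 1 (adjusted p = 0.0433) and ECM1 by 1.37 (adjusted p = 0.00876). TGM3, a transglutaminase that cross-links the envelope, was the member that rose, by 0.55 (adjusted p = 0.0226), while TGM1 differed by -0.08.

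Of 44 measured genes of keratins, the filament proteins of epithelia, 4 rose, 1 fell and the others did not pass the test. Over all genes 0.455% rose and 1.38% fell. Besides KRT1 and KRT5, KRT15 rose by 0.55 (adjusted p = 0.0144) and KRT3 by 0.49 (adjusted p = 0.0472). KRT4, a keratin of inner squamous surfaces, fell by 0.76 (adjusted p = 0.0285). KRT10, the partner of KRT1 in filaments, read -0.78, -0.78, -0.44 and -0.45 (adjusted p = 0.165), and KRT14, the partner of KRT5, 0.12, -0.25, 0.3 and -0.12 (adjusted p = 0.718). Neither partner passed the test, so the rises of KRT1 and KRT5 were not matched by calls in the genes they pair with.

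**Figure D3:**
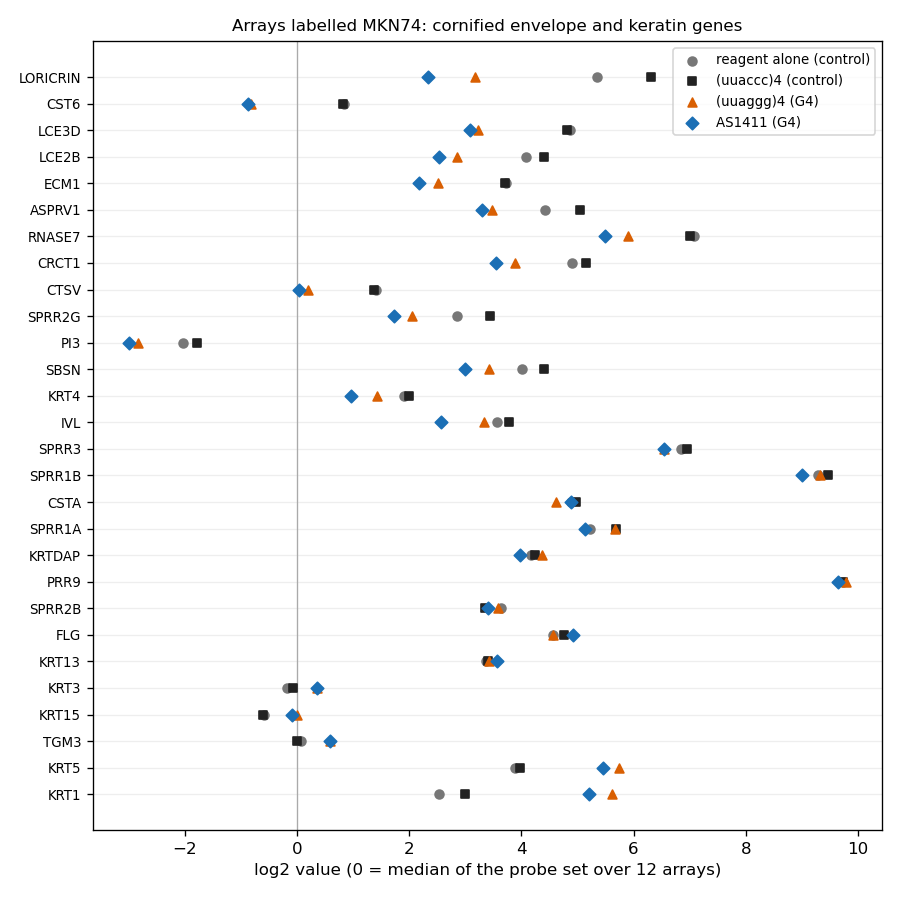
Log2 values (x axis, 0 is the probe set's median over 12 arrays) of 28 cornified envelope and keratin genes in the 4 arrays labelled MKN74, 1 point per array: those past the test and those with a control mean over 3. From LORICRIN to KRT4 the G4 arrays lie left of the controls, from IVL to KRT13 no gene passed, and from KRT3 to KRT1 the G4 arrays lie right, with KRT1 at 5.61 and 5.2 against 2.54 and 3.

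Of 31 cell division genes measured 6 rose, 0 fell and 25 did not pass the test, while 0.455% of all genes rose. In 30 of the 31 both G4 arrays lay above both controls, beside 21.5% of all genes, and the median was 0.46. These genes are not independent replicates. CDC20, which switches on the ubiquitin ligase of anaphase, read -0.15 and -0.1 in the controls and 0.41 and 0.52 with the G4 oligonucleotides (rose by 0.59; SE 0.09, adjusted p = 0.0117). AURKB, the kinase of the chromosomal passenger complex, rose by 0.56 (adjusted p = 0.0179), CCNB2, a mitotic cyclin, by 0.58 (adjusted p = 0.0375; probe sets from -0.12 to 0.58), and UBE2C, PRC1 and CENPE by 0.46, 0.49 and 0.57. The count was not steady: 0 passed without the reagent array, 2 without (uuaccc)4, 1 without (uuaggg)4 and 0 without AS1411. The controls differed as well, with (uuaccc)4 above the reagent by a median of 0.24 over these genes. DNA replication genes had a median of 0.21 and 24 of 30 without overlap above the controls, beside 21.5% of all genes. Limma called 0 of them, with 9 at an unadjusted p under 0.05, beside 14.7% of all genes. PRR11, a gene of proliferating cells, rose by 0.86 (-0.35 and -0.01 in the controls and 0.62 and 0.73 with the G4 oligonucleotides; SE 0.12, adjusted p = 0.00662). DANCR, a snoRNA host transcript, read -1.68 and -1.56 in the controls and -0.63 and -0.56 with the G4 oligonucleotides (rose by 1.02; SE 0.11, adjusted p = 0.00116).

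Targets of p53, the stress-activated tumour suppressor, fell in 4 of 20 and rose in 0, with a median of -0.07. The share of all genes that fell was 1.38%. MDM2, the ubiquitin ligase of p53, read 2.26 and 2.47 in the controls and 1.67 and 1.55 with the G4 oligonucleotides (fell by 0.76; SE 0.13, adjusted p = 0.0179), but its 10 probe sets ran from -0.76 to 0.07. TP53INP1 fell by 0.77 (adjusted p = 0.0107), the death receptor FAS by 0.68 (adjusted p = 0.027) and TP53I3 by 0.55 (adjusted p = 0.0283). Each of the first 3 has a probe set with a difference above 0. With the MKN74 arrays alone none of the 4 was called.

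The other lists held 0 to 3 calls each, while 1.38% of all genes fell and 0.455% rose. HK2, the hexokinase that hypoxia raises, read -5.09 and -4.93 in the controls and -6.26 and -6.8 with the G4 oligonucleotides (fell by 1.52; SE 0.16, adjusted p = 0.000987), with 1 of its 3 probe sets at 0.16, and was the 1 call among 19 hypoxia genes. Of 17 mesenchymal genes 3 fell and 0 rose. ZEB1, a repressor of epithelial genes, fell by 0.72 (adjusted p = 0.00218) and fibronectin, FN1, by 1.08 (adjusted p = 0.00675). The receptor kinase AXL fell by 0.57 (adjusted p = 0.0383). All 3 have probe sets that differ less, down to the opposite sign in FN1 (0.17). CEACAM1, an adhesion molecule, fell by 0.73 (adjusted p = 0.0135; probe sets from -0.73 to 0.1) as the 1 call of 18 epithelial adhesion genes. EIF2AK4, the kinase GCN2, rose by 0.55 (adjusted p = 0.0301; its other probe set differed by -0.06) as the 1 call of 19 genes of the ATF4 stress response. Limma called 0 genes among the heat shock, immediate early, cholesterol synthesis, metallothionein, stemness, ribosome biogenesis and gastric mucus lists. In the 11 lists without a call, which hold 174 genes, 29 (16.7%) had an unadjusted p under 0.05, near the 14.7% of all genes.

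Genes tied to the oligonucleotides by name did not pass either. NCL, which encodes nucleolin, the binding partner of AS1411, read 0.03, 0.12, 0.12 and 0.16 (adjusted p = 0.807). TERF1 and TERF2, proteins of telomeres, differed by -0.06 (adjusted p = 0.85) and -0.08 (adjusted p = 0.821). DHX36, a helicase that unwinds G4 folds, differed by -0.12 (adjusted p = 0.732). Of 15 telomere genes and 17 G4-binding genes measured, limma called 0, and their medians were -0.07 and 0.02. An unadjusted p under 0.05 was found in 3 and 2 of them, beside 14.7% of all genes.

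The G4 oligonucleotides were also set singly against the controls, 1 array against 1, with no test. Between (uuaggg)4 and (uuaccc)4, 98 genes were more than 1 log2 unit lower and 29 higher, together 0.642% of genes. Between AS1411 and the reagent alone, the only control without an RNA oligonucleotide, 129 were lower and 21 higher (0.759%). These comparisons share no array: 65 genes were more than 1 unit lower in both, which is 66.3% of the first list and 50.4% of the second. Above 1 unit 7 genes were shared, 24.1% and 33.3%. The interferon effectors had medians of -0.78 with (uuaggg)4 and -1.02 with AS1411, and the cell division genes 0.34 and 0.61. Each oligonucleotide is set against another control, so these medians do not compare the 2 oligonucleotides. Over the cell division genes AS1411 minus (uuaggg)4 had a median of 0.03, and (uuaccc)4 minus the reagent 0.24.

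Within a class the arrays differed less. The controls, (uuaccc)4 and the reagent, differed by more than 1 unit in 34 genes (0.172%), with an interferon effector median of 0. AS1411 and (uuaggg)4, a DNA and an RNA molecule, differed by more than 1 unit in 38 genes (0.192%), of which 27 were lower with AS1411, and the effector median was -0.15. The genes with the largest gaps between them were not those of the response. AGR2, a protein disulfide isomerase of secretory cells, read -5.23, -4.83, -5.35 and -4.13, higher with AS1411 than in the other 3 arrays. CPVL, a carboxypeptidase, read -4.71, -4.85, -5.02 and -3.79, also highest with AS1411. TMOD2 (3.73, 3.97, 3.19 and 4.33), LOC100505498 (0.38, 0.44, -0.13 and 1.03) and PRR34-AS1 (-4.97, -5.11, -6.06 and -4.36) were also higher with AS1411 than with (uuaggg)4.

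Among those lower with AS1411, the nuclear noncoding RNA MALAT1 read -3.06, 0.46, 0.15 and -3.51: the reagent and AS1411 arrays were low and both RNA oligonucleotide arrays high. Its 12 probe sets had class differences between -0.38 and 0.25. Each class holds a low and a high array, so these differences cannot show whether the other probe sets share the pattern. PPP3R1, a calcineurin subunit, read -1.17, 0.39, 0.26 and -1.44 in the same order. SESTD1 (-3.55, -3.41, -2.93 and -4.39), TCEAL3 (-4.66, -4.99, -3.92 and -5.5) and ZEB1-AS1 (-0.23, -0.03, 0.11 and -1.29) were lowest with AS1411 alone.

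**Figure D4:**
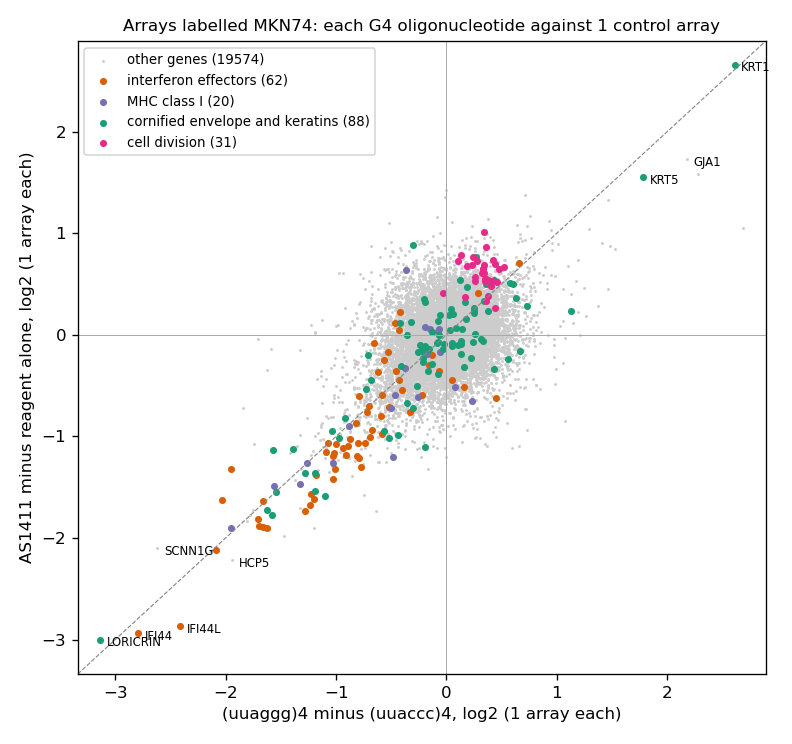
Log2 difference of AS1411 from the reagent alone (y axis) against that of (uuaggg)4 from (uuaccc)4 (x axis) in the arrays labelled MKN74, 1 array each; each point is 1 of 19775 genes, coloured by list, and the dashed line marks equal differences. Interferon effectors and part of the cornified envelope genes lie at the lower left with LORICRIN and IFI44, KRT1 and KRT5 at the upper right, and most cell division genes above 0 on both axes.

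Set against PC-3 and HBC4 in the same fit, the MKN74 response was lower than their mean in 86 genes (0.435%) and higher in 89 (0.45%), at an adjusted p under 0.05 for the difference itself. Of the 89, 30 belong to the interferon and MHC class I lists, 25 of them effectors. Of the 86, 65 had fallen in MKN74. Without the reagent array the counts were 29 and 32, without (uuaccc)4 29 and 43, without (uuaggg)4 51 and 45, and without AS1411 34 and 60.

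IFI27, an interferon-stimulated gene, had the smallest p. It read 1.89 and 1.7 in the controls and 0.47 and 0.32 with the G4 oligonucleotides in MKN74, a fall of 1.4 (adjusted p = 0.00118), beside differences of -4.21 in PC-3 and -5.85 in HBC4. The response in MKN74 was 3.63 above the mean of those (adjusted p = 2.49e-05). Its relative IFI6 had -0.84 in MKN74 and -3.49 and -4.37 in the other lines (adjusted p = 0.000268), though its own fall in MKN74 (adjusted p = 0.0451) was lost when any 1 MKN74 array was left out. RTP4 (0.68 beside -2.83 and -1.79; adjusted p = 0.000429), OASL (-0.01 beside -2.7 and -2.04; adjusted p = 0.000429) and SAMD9L (-0.17 beside -3 and -3.06; adjusted p = 0.00135) differed between lines with no call in MKN74. The sixth, VAV3, rose in MKN74 and had -0.36 and -0.48 elsewhere (adjusted p = 0.0014).

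In the other direction LORICRIN had -3.07 in MKN74 and 0.18 and 0.39 in the other lines (adjusted p = 0.00392), where its control means were -0.29 and -0.35 against 5.34 and 6.32 in the MKN74 control arrays. SCNN1G (-2.36 beside 0.33 and -0.02; adjusted p = 0.000268), CRCT1 (-1.32 beside 0.23 and 0.56; adjusted p = 0.00135) and the actin-binding PALLD (-1.09 beside -0.19 and 0.02; adjusted p = 0.00392; 1 of its 4 probe sets at 0.06 in MKN74) also had a response below that of the other lines. Among them only CRCT1 had, like LORICRIN, a MKN74 control mean above those of PC-3 and HBC4 (5.04 against -0.15 and -2.12). The MKN74 control mean was below both in SCNN1G (-1.1 against 2.6 and 0) and in PALLD (-2.54 against 0.72 and -0.02). HLA-B fell more in MKN74 than elsewhere (-1.92 beside -0.74 and -0.63; adjusted p = 0.00488), as did HLA-G (adjusted p = 0.0176), while the NLRC5 response lay above that of the other lines (adjusted p = 0.0215). HSPA6, a heat shock protein, had a response below that of the other lines, with the gap to PC-3 the wider: -0.18 in MKN74 beside 2.26 and 0.52 (adjusted p = 0.00488). LGALS3BP was the 1 effector whose MKN74 response lay below that of the other lines (-1.76 beside -1.08 and -0.77; adjusted p = 0.0176).

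Many falls were called in all 3 lines. By the same test 256 genes (1.29%) fell in PC-3 and 395 (2%) in HBC4. Of the 272 that fell in MKN74, 69 also fell in PC-3, which is 25.4% of the MKN74 list and 27% of the PC-3 list, 86 also in HBC4 (31.6% and 21.8%), and 59 in all 3 lines. In PC-3 126 genes rose (0.637%) and in HBC4 279 (1.41%), of which 7 and 14 had risen in MKN74. Of the 62 effectors 58 fell in PC-3 and 57 in HBC4, beside the 36 in MKN74. Across all 19775 genes the MKN74 differences correlated with those of PC-3 at r = 0.26 and of HBC4 at r = 0.31, and PC-3 with HBC4 at 0.42. Over the 62 effectors these were 0.42, 0.46 and 0.72. The lines share no array, but genes are not independent replicates, and the values are a description.

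**Figure D5:**
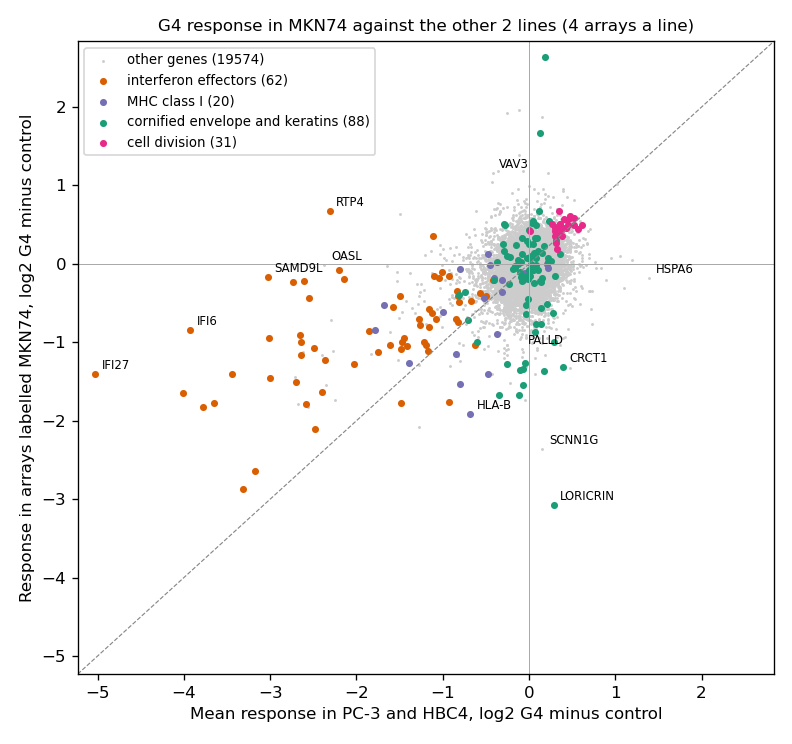
Log2 G4 minus control difference in the arrays labelled MKN74 (y axis) against the mean of the PC-3 and HBC4 differences (x axis), 1 point per gene for 19775 genes, coloured by list, with the genes of smallest p for the difference between lines named; the dashed line marks equal differences. Most interferon effectors lie above the line, with IFI27 at -1.4 against -4.21 and -5.85, and LORICRIN, SCNN1G and CRCT1 lie far below it.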

How the data were processed

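Total RNA from 12 cultures (3 cell lines, 4 treatments) was hybridised to 1 Affymetrix array each, from 100 ng RNA per the labels' protocols. The deposited values are log2 expression values for 54675 probe sets; per the submitters' processing notes they were made by RMA (version not given in the sources used here). All probe-set medians over the 12 arrays are 0 (within 5e-07), which shows centring after RMA, a step that the labels do not describe. They hold no level, detection call or depth, and the number of arrays limits the precision.

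Probe sets that name 1 gene (41091) were kept; 62 array controls, 1801 that name several genes and 11721 unnamed here were left out. Names come from the platform annotation, checked against RefSeq gene identifiers (41037 matched). Each gene was read from 1 probe set, the one whose 3 line means had the greatest SD; since G4 arrays enter those means, the choice can favour a response that differs between lines. Where the probe sets of a called gene differ in sign, the text says so.

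Class means within lines (6) were fitted to all 12 arrays with limma 3.58.1 in R 4.3.3 (lmFit, eBayes; 6 residual degrees of freedom), with Benjamini-Hochberg adjustment over 19775 genes and a threshold of 0.05. SE is that of the fit. In simulated data of the same size, for MKN74 G4 minus control, 90% of genes shifted by 1 log2 unit and 99% of those shifted by 2 were recovered, with 11 false calls. The simulated noise was normal and independent between genes and arrays, so these shares do not cover errors that genes have in common. The p-values measure the spread between arrays of different treatments in a class, since the labels name no further cultures. Genes were named by size of change (10 in each direction), by smallest p for the difference between lines (6 in each direction) or within each of 23 pathway lists (4 genes), by the 5 largest gaps in each direction between AS1411 and (uuaggg)4, and from the interferon, sensor, MHC class I, cornified envelope, keratin and BMP lists. Gene groups and members were chosen with earlier results of these data known; the last 3 lists were written after the values were seen. No set test was run.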

Additional observations from a re-analysis of the deposited data

Results flagged for a closer look

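For the genes below, each named above or among the 4 smallest p-values of its list, the G4 response in MKN74 differed from the mean response in PC-3 and HBC4, with limma's adjusted p for the difference under 0.05. Values are that difference in log2 units. For these interferon-stimulated genes the response in MKN74 lay above that in the other lines: IFI27 3.63, IFI6 3.09, RTP4 2.99, SAMD9L 2.85, OASL 2.36, XAF1 1.95, USP18 1.49, IFIH1 1.42 and OAS3 1.16. Genes that rose in MKN74 were also above the other lines: KRT1 2.44, FABP4 2.18, GJA1 2.07, VAV3 1.58, KRT5 1.54, LINC01133 1.54 and CLCA2 1.51.

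The response in MKN74 lay below the mean of the other lines for LORICRIN -3.36, SCNN1G -2.52, CRCT1 -1.72, HSPA6 -1.57, HK2 -1.3, PALLD -1.01, ZEB1 -0.74 and TP53I3 -0.69. MHC class I genes and their neighbour HCP5 were on the same side, with HLA-B at -1.24, HLA-G at -0.92 and HCP5 at -0.8, as was LGALS3BP at -0.83. CLCA2 had opposite signs in the other lines, -1.05 in PC-3 and 0.81 in HBC4, so their mean describes neither, and LINC01133 likewise with 0.41 and -1.13. Against HBC4 alone the difference did not pass for HSPA6 (adjusted p = 0.203), TP53I3 (adjusted p = 0.135), CLCA2, OAS3, HCP5, HLA-G, IFIH1 and USP18. Against PC-3 alone it did not pass for LINC01133, ZEB1, XAF1 and LGALS3BP. No group of arrays was large enough for a check of single outlying arrays.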

How the results depend on the processing

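As reported, 272 genes fell and 90 rose. Fitting the 4 MKN74 arrays alone, with their 2 residual degrees of freedom in place of 6, gave 84 and 9, quantile normalization gave 160 falls, treatment effects shared by the lines gave 59 rises, and leaving out the PC-3 arrays, an alternative added after the data were seen, gave 170 and 45. Leaving out 1 MKN74 array gave 91 to 157 falls and 28 to 44 rises, 29 to 51 genes below and 32 to 60 above the other lines. Treatment effects shared by the lines left 56 genes below the other lines, and HBC4 as the only other line 57. Genes without overlap numbered 1157 below and 706 above the controls with a gap of at least 0.2, and 9046 and 8756 counted over all probe sets. Quantile normalization gave 31 falls among the 62 interferon effectors and the MKN74 arrays alone 27, against 36, and no effector rose under any of the 13 alternatives.

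Of 348 genes followed, 110 were called, and 40 kept the call under all 13 alternatives, among them LORICRIN, SCNN1G, HCP5, HLA-B, IFI44, OAS1, KRT1, KRT5, GJA1 and DANCR. Of the 69 with a difference of at least 1 log2 unit 38 kept it throughout, and of the 41 with a smaller one 2 did. RIGI turned to 0.16 with the probe set chosen on control arrays, and PRR34-AS1, not called as reported, turned to 0.68 without (uuaggg)4 and was -1.02 without AS1411. Scaling moved the median of all genes by less than 0.1. No paired analysis was possible because the labels carry no replicate numbers that join MKN74 arrays across classes. Signal over background cannot be judged from centred values.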

Other observations

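Genes of BMP signalling, the growth factor pathway that acts through SMAD1, SMAD5 and SMAD9, were looked at after BMP7 and SMAD6 were seen among the rises, so the group has no test of its own. Of 22 measured, 4 rose and 0 fell in MKN74, beside 0.455% and 1.38% of all genes. In 13 both G4 arrays lay above both controls, beside 21.5% of all genes, and the median was 0.22 beside 0. BMP7 and SMAD6, which prompted the list, are among the 4. With the MKN74 arrays alone none of the 4 was called. BMP7, a ligand, read 7.8 and 7.76 in the controls and 8.53 and 8.75 with the G4 oligonucleotides (rose by 0.86; SE 0.14, adjusted p = 0.0125), but with quantile normalization its difference was 0.15, and its call was lost there, with the MKN74 arrays alone and without 3 of the 4 MKN74 arrays in turn (adjusted p up to 0.0977). SMAD6, an inhibitor that BMP signals raise, read -1.74 and -1.52 in the controls and -0.51 and -0.86 with the G4 oligonucleotides (rose by 0.95; SE 0.16, adjusted p = 0.0155), in probe sets that ran from 0.03 to 0.95. ID1, a target gene, read -0.29 and 0.12 in the controls and 0.75 and 0.48 with the G4 oligonucleotides (rose by 0.7; SE 0.14, adjusted p = 0.036) and MSX1 0.79 and 0.66 in the controls and 1.32 and 1.38 with the G4 oligonucleotides (rose by 0.63; SE 0.11, adjusted p = 0.0148). ID3 and BMP2 had differences of 1.04 and 0.85 and did not pass (adjusted p = 0.0623 and adjusted p = 0.0771). The ID1 response lay above that of the other lines (1.1, adjusted p = 0.0172), where ID1 differed by -0.42 in PC-3 and -0.38 in HBC4, and so did that of SMAD6 (1.08, adjusted p = 0.0343).

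Outside the groups described, 2 further rises were LPAR1, a receptor for lysophosphatidic acid, at -2.98 and -3.05 in the controls and -2.1 and -1.94 with the G4 oligonucleotides (SE 0.11, adjusted p = 0.00175), and SOX4, a transcription factor, at -3.22 and -3.24 in the controls and -2.28 and -2.39 with the G4 oligonucleotides (SE 0.1, adjusted p = 0.00116). These genes were picked once their values had been seen. The 3 probe sets of LPAR1 ran from -0.08 to 0.99 and the 6 of SOX4 from -0.26 to 0.9. With the mean over probe sets neither was called.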
